A study of Mus musculus with 6 samples.

Results

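The mRNAs of 10 genes that store, release, admit or sense calcium were followed in oocytes of mice with and without Lsm14b. The oocytes were fully-grown (FGOs) and at the germinal vesicle (GV) stage, and the genotypes were wild type (WT) and knockout (Lsm14b-KO). The genes were taken by symbol, as 10 of the 24255 genes whose expression was deposited. They were the IP3 receptors Itpr1, Itpr2 and Itpr3, the calcium pump Atp2a2, the store sensors Stim1 and Stim2, the channels Orai1, Trpm7 and Cacna1h, and the calmodulin gene Calm2. FGOs at the GV stage have completed growth and are arrested in prophase of the first meiotic division. LSM14B is a member of the LSM14 proteins, which bind RNA. Lsm14b-KO females were homozygous for Lsm14b tm1a(KOMP)Mbp, a knockout-first, reporter-tagged insertion, and the line was kept on a C57BL/6J background. The allele is carried in all tissues, so the follicle cells around the oocytes lacked an intact gene as well. All females of both genotypes had received 5 IU of PMSG, a gonadotropin that stimulates follicle growth, 46 h before collection, and their age is not given in the sources used here. RNA of 20 oocytes per library was amplified by Smart-seq2, with 3 libraries per genotype and 6 in all. Nothing in the labels says that the 3 libraries of a genotype came from separate animals, so the tests measure the spread between these libraries.

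Calcium is the signal that starts embryonic development. At fertilization a sperm phospholipase produces IP3, IP3 receptors in the endoplasmic reticulum release stored calcium in repeated waves, and the SERCA pump encoded by Atp2a2 refills the store after each wave. The waves can continue only if calcium enters from outside. STIM proteins sense an emptied store and open ORAI channels, while the channel-kinase TRPM7 and the T-type channel encoded by Cacna1h are the entry routes best known in mouse eggs. Calmodulin binds the released calcium and passes the signal to kinases and phosphatases. The calcium store is filled and the release machinery is prepared while the oocyte is still growing and maturing, from mRNAs and proteins it has stored.

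Calm2 and Calm3 specify the same protein from different coding sequences. The start of each is shown because the calmodulin result below depends on telling such mRNAs apart. The lines give the first 90 coding bases of the GENCODE vM21 (GRCm38) transcripts, 5′ to 3′ on the coding strand, with the 15 positions at which these genes differ in capitals. All 15 are at the last base of a codon.
Calm2: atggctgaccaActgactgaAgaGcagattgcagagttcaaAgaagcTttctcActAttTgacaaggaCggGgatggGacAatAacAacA
Calm3: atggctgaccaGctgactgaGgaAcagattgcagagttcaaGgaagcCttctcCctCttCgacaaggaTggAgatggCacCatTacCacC
Over the whole 447-base coding sequence, Calm2 shares 369 bases (82.6%) with Calm3, and all 149 residues are identical. Calm2 lies at chr17:87433412-87446935 on the minus strand and Calm3 at chr7:16915379-16924114 on the minus strand. The Calm2 transcript used here is 1205 bases long in 6 exons. It has near-identical stretches in 2 pseudogenes, Gm15720 and Gm7308, neither of which has a value of its own among the deposited genes, so fragments that match either copy cannot be told apart from Calm2.

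Expression is given as FPKM, the fragments of a gene per kilobase of transcript and per fixed number of mapped fragments, so that levels of different genes can be set side by side. The FPKM of all genes summed to 1141320 to 1244180 in the WT libraries and to 564671 to 1029730 in the Lsm14b-KO libraries. The spacing of the lowest values gave relative depths of 1 to 1.14 in the WT libraries and of 1.32, 1.94 and 2.18 in Lsm14b-KO replicates 1, 2 and 3. These are inverses of the FPKM worth of 1 fragment. They equal sequencing depth only if FPKM was scaled by each library's own total, which was not tested. Lsm14b itself stood at 2.77, 3.98 and 1.72 FPKM in the WT libraries. It was listed at 0, 0 and 0.102 FPKM in the Lsm14b-KO libraries. All 12 oocyte markers were above 1 FPKM in every library, and 1 of them, Nobox, was called, as higher in Lsm14b-KO (log2 fold change 2.25, adjusted p = 0.0064 by limma). Of 12 cumulus and granulosa cell markers, 5 were at 0 in every library, and their summed level was 9.89 to 13.5 FPKM in WT and 6.23 to 10.4 FPKM in Lsm14b-KO. The highest of them on average was Cyp19a1, the aromatase gene, at 11.5, 8.26 and 10.5 FPKM in WT and 5.47, 3.00 and 5.76 FPKM in Lsm14b-KO (log2 fold change -0.98, adjusted p = 0.043 by limma). Fshr, the follicle-stimulating hormone receptor gene, stood at 1.68, 0.526 and 0.349 FPKM in WT and at 2.07, 1.91 and 1.82 FPKM in Lsm14b-KO (log2 fold change 0.73, adjusted p = 0.092 by limma). All 6 red blood cell markers were at 0. The part of other cells in the results was not tested. In these pooled oocytes, fewer cells of a type and less RNA per cell cannot be told apart.

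The 10 genes spanned the range of oocyte expression. Calm2 was far above the rest, with 8821 to 12278 FPKM in WT libraries and rank 19, 19 and 23 among all genes. Atp2a2 followed at 7.53 to 8.70 FPKM, Itpr2 at 2.97 to 3.65 FPKM and Orai1 at 1.65 to 2.74 FPKM, and these ranges did not overlap. Itpr1 at 0.734 to 0.858 FPKM and Trpm7 at 0.582 to 0.863 FPKM overlapped in WT. Stim2 reached 0.162 to 0.475 FPKM, above Cacna1h at 0 to 0.139 FPKM. Stim1 and Itpr3 were listed at 0 in all WT libraries. An exact 0 can be a failed estimate, and it does not show that a gene was silent.

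**Figure D1:**
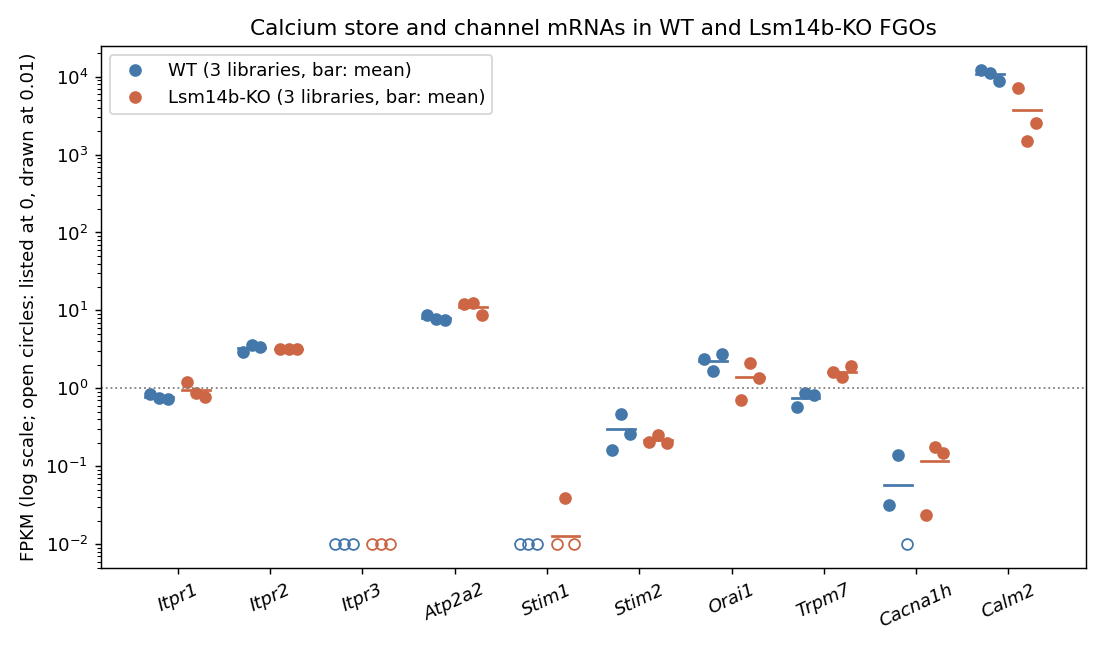
FPKM of the 10 calcium genes on a log scale, with 1 filled point per library, bars at the group means and open circles for values listed at 0. Calm2 sits at 1486 to 12278 FPKM, far above the other 9 genes, and its Lsm14b-KO points all lie below its WT points, whereas the Trpm7 and Atp2a2 points of Lsm14b-KO all lie above those of WT. The dotted line marks 1 FPKM.

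Of the 10 genes, 6 reached 1 FPKM in at least 1 library and were tested for a difference between genotypes (limma on log2(FPKM + 1), p-values adjusted by the Benjamini-Hochberg method over 6398 genes). Itpr3, Stim1, Stim2 and Cacna1h were too low to be tested. Itpr1 and Trpm7 entered the test only through Lsm14b-KO libraries, since neither reached 1 FPKM in WT. Calm2 was the only gene of the 6 with an adjusted p under 0.05, and it was lower in Lsm14b-KO. Of all tested genes, 21.6% were called, 6.38% as higher and 15.2% as lower in Lsm14b-KO, so that 1 call among 6 genes was near the background. At an unadjusted p under 0.05 by limma, 2 of the 6 passed, Calm2 and Trpm7, beside 2518 of all 6398 tested genes. This was no excess over the background. The groups did not overlap for 3 of the 6 genes, Calm2, Trpm7 and Atp2a2, where 45% of all tested genes had groups that did not overlap. The median log2 fold change of the 6 was 0.04, against -0.08 over all tested genes.

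The IP3 receptors open the store. Itpr1 (chr6:108213096-108551109, plus strand) encodes the receptor type that is best known from mouse eggs. Its mRNA stood at 0.858, 0.754 and 0.734 FPKM in WT and at 1.20, 0.868 and 0.781 FPKM in Lsm14b-KO. The values overlapped, at a log2 difference of 0.12 with an SE of 0.19 (adjusted p = 0.63 by limma). Itpr2 (chr6:146108299-146502223, minus strand) stood at 2.97, 3.65 and 3.40 FPKM in WT. The Lsm14b-KO values of 3.20, 3.20 and 3.17 FPKM lay within the WT range. For Itpr2 the log2 difference was -0.05 with an SE of 0.19 (adjusted p = 0.86 by limma). Itpr3 (chr17:27057304-27122223, plus strand) was listed at 0 in all 6 libraries. At its transcript length, the 3 fragments that a count of 0 allows equal 0.0417 to 0.0906 FPKM, depending on the library.

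Per kilobase, Itpr2 mRNA exceeded Itpr1 mRNA in every library. The ratio of Itpr2 to Itpr1 was 3.46, 4.84 and 4.64 in WT and 2.67, 3.68 and 4.06 in Lsm14b-KO. Itpr1 accordingly held 19.1% ± 2.89 of the summed FPKM of the IP3 receptor genes in WT, against 22.8% ± 3.93 in Lsm14b-KO (SD, n = 3 each). The difference of 3.69 percentage points did not exceed the spread (exact two-sided permutation test, p = 0.3, smallest possible p 0.1). The estimated fragment numbers behind these values were 27 to 62 per library for Itpr1 and 128 to 297 for Itpr2.

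Atp2a2 (chr5:122453513-122502225, minus strand) encodes the SERCA pump that returns calcium to the store. It stood at 8.70, 7.83 and 7.53 FPKM in WT and at 12.2, 12.5 and 8.84 FPKM in Lsm14b-KO. All Lsm14b-KO values were above all WT values, although Lsm14b-KO replicate 3 was only just above WT replicate 1. The group means were 8.02 ± 0.608 and 11.2 ± 2.03 FPKM (SD, n = 3 each). The difference on the log2 scale, 0.42 (SE 0.24), did not pass the test (adjusted p = 0.21 by limma). With all libraries brought to an equal FPKM sum, as TPM are, it was 1.05 and passed (adjusted p = 0.041 by limma), beside 20.6% of all genes called under that scaling. The other pump genes of this family, Atp2a1 and Atp2a3, were listed at 0 in all libraries, so Atp2a2 held 100% of the family's FPKM in each. A pseudogene, Gm30970, is near-identical to a stretch of the Atp2a2 transcript and has no value of its own.

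The sensors of store filling were scarcely detected. Stim1 (chr7:102267806-102437319, plus strand) was listed at 0 in 5 of 6 libraries and at 0.0387 FPKM in Lsm14b-KO replicate 2, an estimated 1 fragment. Stim2 (chr5:53998499-54121057, plus strand) stood at 0.162, 0.475 and 0.263 FPKM in WT and at 0.204, 0.250 and 0.200 FPKM in Lsm14b-KO. The Lsm14b-KO values of Stim2 lay within the WT range, and an estimated 3 to 10 fragments stood behind each value of this gene. A difference in either sensor was not detectable at this depth.

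Orai1 (chr5:123015074-123030456, plus strand) encodes the pore that STIM proteins open. It stood at 2.36, 1.65 and 2.74 FPKM in WT and at 0.708, 2.10 and 1.37 FPKM in Lsm14b-KO. The lowest value, in Lsm14b-KO replicate 1, rested on an estimated 6 fragments, and the other libraries had 13 to 28. The groups overlapped, with means of 2.25 ± 0.554 and 1.39 ± 0.697 FPKM (SD, n = 3 each). The log2 fold change of -0.47 (SE 0.27) did not pass the test (adjusted p = 0.22 by limma), and it was 0.01 after scaling to equal FPKM sums (adjusted p = 0.99 by limma). Orai2 and Orai3 added so little that Orai1 held 86.6% to 100% of the family's FPKM, whose sum fell short of 1 FPKM in Lsm14b-KO replicate 1.

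Trpm7 (chr2:126791565-126876230, minus strand) encodes a channel for calcium, magnesium and zinc that carries its own kinase. Its mRNA stood at 0.582, 0.863 and 0.815 FPKM in WT and at 1.62, 1.38 and 1.93 FPKM in Lsm14b-KO. Every Lsm14b-KO library was above every WT library. The means were 0.753 ± 0.15 and 1.65 ± 0.276 FPKM (SD, n = 3 each), and the mean of Lsm14b-KO was 2.18 times that of WT. An estimated 15 to 26 fragments stood behind the WT values and 56 to 110 behind the Lsm14b-KO values. The log2 fold change on the log2(FPKM + 1) scale, which understates the change of low genes, was 0.59 (SE 0.19, adjusted p = 0.059 by limma), so Trpm7 just missed the threshold. The exact two-sided permutation test gave its smallest possible p, 0.1. With genes required to reach 1 FPKM in at least 3 libraries, the adjusted p of Trpm7 was 0.040 at the same log2 fold change, but Trpm7 met that requirement only through the 3 Lsm14b-KO libraries in which it was high, so this call is no support for a difference. The adjusted p by limma was 0.036 with equal FPKM sums and 0.037 with median-ratio scaling. In these settings, and in the test as reported, Trpm7 also passed the filter only through Lsm14b-KO libraries. None of these p-values is therefore support for a difference. In WT the order of Trpm7 and Itpr1 differed between libraries, while in Lsm14b-KO Trpm7 was above Itpr1 in all 3.

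Cacna1h (chr17:25374285-25433783, minus strand) encodes the pore of a T-type channel opened by small changes in membrane voltage. It was listed at 0.0316, 0.139 and 0 FPKM in WT and at 0.0239, 0.179 and 0.146 FPKM in Lsm14b-KO. These values correspond to an estimated 0 to 11 fragments per library, and the groups overlapped. No difference was detectable at this depth.

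Calm2 showed the largest change among the 6 tested genes. It stood at 12278, 11047 and 8821 FPKM in WT and at 7125, 1486 and 2525 FPKM in Lsm14b-KO. All Lsm14b-KO values were below all WT values, but Lsm14b-KO replicate 1 was much nearer to WT than the other Lsm14b-KO libraries. The means were 10715 ± 1752 and 3712 ± 3001 FPKM (SD, n = 3 each), so that the WT mean was 2.89 times that of Lsm14b-KO. The difference of the mean log2 values was -1.83 with an SE of 0.53 (adjusted p = 0.045 by limma), and the exact two-sided permutation test gave p = 0.1, the smallest that 3 against 3 libraries allow. Even at its lowest, in Lsm14b-KO replicate 2, Calm2 ranked 68 among all genes and rested on an estimated 12821 fragments. As a share of each library's summed FPKM, Calm2 took 0.987%, 0.943% and 0.773% in WT and 0.692%, 0.263% and 0.373% in Lsm14b-KO, and the groups still did not overlap.

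The Calm2 call was close to the threshold. Leaving out WT replicate 1, 2 or 3 gave adjusted p = 0.14, 0.12 and 0.10 by limma at log2 fold changes of -1.72, -1.80 and -1.96. With Lsm14b-KO replicate 2 left out it was -1.32 (adjusted p = 0.079 by limma), and with replicate 3 left out -1.71 (adjusted p = 0.15 by limma). With Lsm14b-KO replicate 1 left out it was -2.45 (adjusted p = 0.00020 by limma). The direction was the same in all 16 alternatives of this value, which ran from -2.45 to -1.13, and 8 of them passed the threshold.

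Calm3, in contrast, was listed at 0 in 4 libraries and at no more than 0.179 FPKM in the others, which corresponds to an estimated 3 fragments or fewer.

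**Figure D2:**
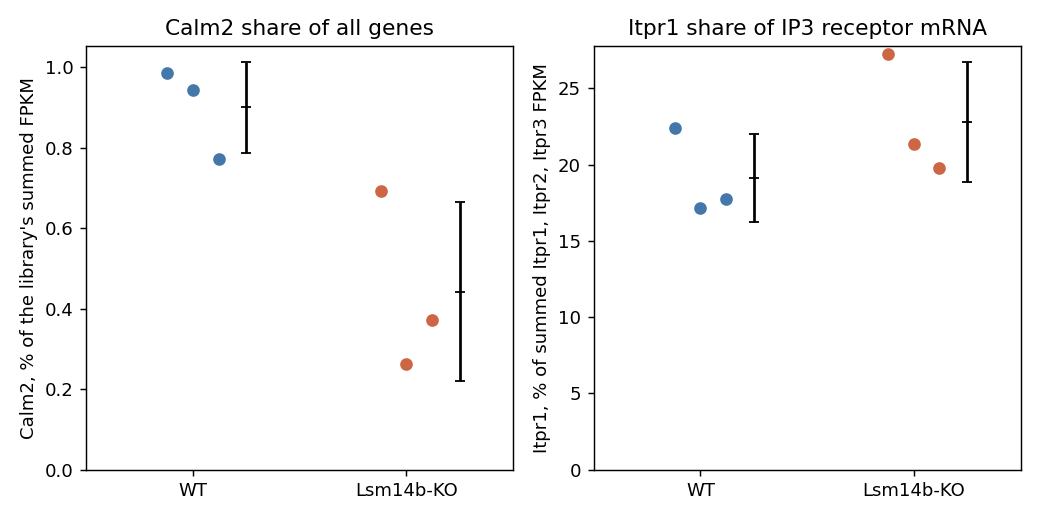
Calm2 as a percentage of the summed FPKM of all genes in a library, and Itpr1 as a percentage of the summed FPKM of the IP3 receptor genes, with 1 point per library and black marks for mean ± SD (n = 3). The Calm2 shares separate the genotypes (0.773% to 0.987% against 0.263% to 0.692%), whereas the Itpr1 shares overlap.

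Length followed the change across the transcriptome. The median log2 fold change was -0.62 over 949 genes with transcripts under 1000 bases, -0.32 over 1840 genes of 1000 to 2000 bases, 0.12 over 2220 genes of 2000 to 4000 bases, 0.28 over 1139 genes of 4000 to 8000 bases and 0.36 over 170 longer genes. Calm2, at 1205 bases, was below the lower quartile of its length class (-0.88), and Orai1, at 1875 bases, was between that quartile and the class median. Of the 1840 genes of this class, 19.5% were called as lower in Lsm14b-KO. Atp2a2 and Trpm7 were above the median of their class and below its upper quartile (0.61). Itpr1 and Itpr2, at 9870 and 11679 bases, were both below the median of the longest class. After the length and GC correction, the log2 fold change of Calm2 was -1.21 (adjusted p = 0.038 by limma), that of Trpm7 0.44 and that of Atp2a2 0.18. Neither of the last 2 passed, with adjusted p = 0.14 and 0.61 by limma. The part that length plays in the level of any of these mRNAs was not tested.

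**Figure D3:**
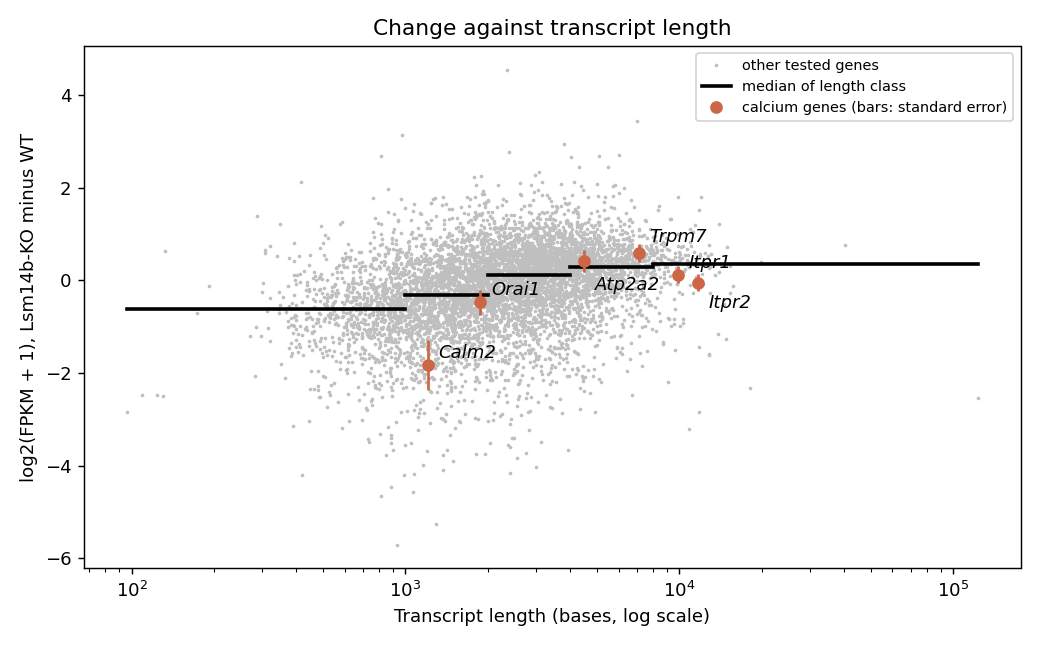
Log2 fold change between Lsm14b-KO and WT against transcript length on a log scale for tested genes (grey), with black lines at the median of each length class and the 6 tested calcium genes in colour with their standard errors. The class medians run from -0.62 in the shortest to 0.36 in the longest class, and Calm2 (-1.83) lies below the lower quartile of its class (-0.88).

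A wider list of 96 calcium genes with the roles of these 10 was then read, with the 10 themselves left out. Of the 96, 93 had a value and 30 were tested. In this list 6 genes were called, 5 as higher and 1 as lower in Lsm14b-KO, where 21.6% of all genes were called. The median log2 fold change of the 30 was 0.35, against -0.08 over all tested genes, and 6 of the 30 entered the test only through Lsm14b-KO libraries. Genes for IP3 supply and other store release, including the ryanodine receptors and phospholipases C, were all too low to test. None of the 21 with a value reached 1 FPKM in any library.

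Of 12 tested genes for calcium pumps and lumenal proteins of the store, 2 passed the test, both as higher in Lsm14b-KO. The share called over all tested genes was 21.6%. Of the 12 log2 fold changes, 10 were above 0, with a median of 0.63, beside 2997 of all 6398 tested genes above 0. This comparison was not matched for transcript length, with which the log2 fold change rose across the transcriptome. Of the 12 genes, 2 entered the test only through Lsm14b-KO libraries. Hspa5, the chaperone BiP that also binds calcium in the lumen, stood at 10.3, 8.82 and 13.3 FPKM in WT and at 28.6, 31.3 and 28.4 FPKM in Lsm14b-KO. Its groups were far apart (log2 fold change 1.38, SE 0.25, adjusted p = 0.011 by limma). Hsp90b1, the chaperone GRP94, stood at 1.41, 0.881 and 1.56 FPKM in WT and at 3.18, 10.3 and 6.15 FPKM in Lsm14b-KO (log2 fold change 1.62, SE 0.36, adjusted p = 0.020 by limma). The buffer genes Calr and Canx did not pass, with log2 fold changes of 0.56 and 1.43 and adjusted p = 0.31 and 0.14 by limma. The same held for the Golgi calcium pump Atp2c1, at 1.59 (adjusted p = 0.077 by limma). Hspa5 lost its call without WT replicate 1 or 2 or Lsm14b-KO replicate 3, and Hsp90b1 without any WT library or Lsm14b-KO replicate 3, with adjusted p between 0.056 and 0.083 by limma.

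Of the genes of the wider list for entry across the plasma membrane, which leaves out Orai1 and Trpm7, only Saraf was tested. It was called, where 21.6% of all tested genes were called, so this single call says little about entry genes. Saraf encodes a protein of the endoplasmic reticulum that damps store-operated entry. It rose from 4.48, 3.37 and 3.88 FPKM in WT to 6.48, 12.7 and 8.14 FPKM in Lsm14b-KO (log2 fold change 1.00, SE 0.27, adjusted p = 0.038 by limma). The call was lost without any single library other than Lsm14b-KO replicate 1, with adjusted p up to 0.13 by limma. On the export side, the only tested gene was the plasma membrane pump Atp2b1, whose log2 fold change of 1.10 did not pass (adjusted p = 0.070 by limma). The sodium-calcium exchangers Slc8a1 and Slc8a3 were too low to test.

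Among genes of mitochondrial calcium uptake, 1 of 9 passed, where 21.6% of all tested genes were called. Of the 9 genes, 3 entered the test only through Lsm14b-KO libraries. Vdac2, a channel of the outer mitochondrial membrane through which calcium and metabolites pass, fell from 344, 360 and 261 FPKM in WT to 43.3, 13.5 and 19.6 FPKM in Lsm14b-KO. This fall of -3.76 on the log2 scale (SE 0.44, adjusted p = 0.0022 by limma) passed under all 16 alternatives. Its sister gene Vdac3 had means of 675 FPKM in WT and 491 FPKM in Lsm14b-KO and did not pass (log2 fold change -0.63, adjusted p = 0.30 by limma). A near-identical pseudogene of Vdac2, Gm7832, has no value of its own. The uniporter pore gene Mcu and its regulators Micu2 and Micu3 did not pass, with log2 fold changes of 0.54, 0.23 and 0.20.

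Calcineurin is the phosphatase that calcium and calmodulin switch on, and 2 of its subunit genes were the called genes among 7 tested effectors. Of all tested genes, 21.6% were called, and 1 of the 7 effectors entered the test only through Lsm14b-KO libraries. Ppp3ca, a catalytic subunit, rose from 0.939, 1.02 and 0.429 FPKM in WT to 4.24, 1.59 and 4.02 FPKM in Lsm14b-KO (log2 fold change 1.20, SE 0.31, adjusted p = 0.031 by limma). Ppp3r1, the calcium-binding subunit, rose from 1.67, 1.12 and 1.53 FPKM to 2.81, 7.22 and 4.20 FPKM (log2 fold change 1.17, SE 0.30, adjusted p = 0.030 by limma). Both lost the call without any WT library or without Lsm14b-KO replicate 3, with adjusted p between 0.079 and 0.13 by limma. Ppp3r1 shares a near-identical stretch with Wdr92, which stood at no more than 1.54 FPKM. The other catalytic subunit genes on the list, Ppp3cb and Ppp3cc, were too low to test, and their groups overlapped. Their means in WT and Lsm14b-KO were 0.149 and 0.321 FPKM for Ppp3cb and 0.530 and 0.346 FPKM for Ppp3cc. The kinase gene Camk2g, whose product acts downstream of calmodulin at egg activation, did not pass at a log2 fold change of 0.54 (adjusted p = 0.11 by limma).

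**Figure D4:**
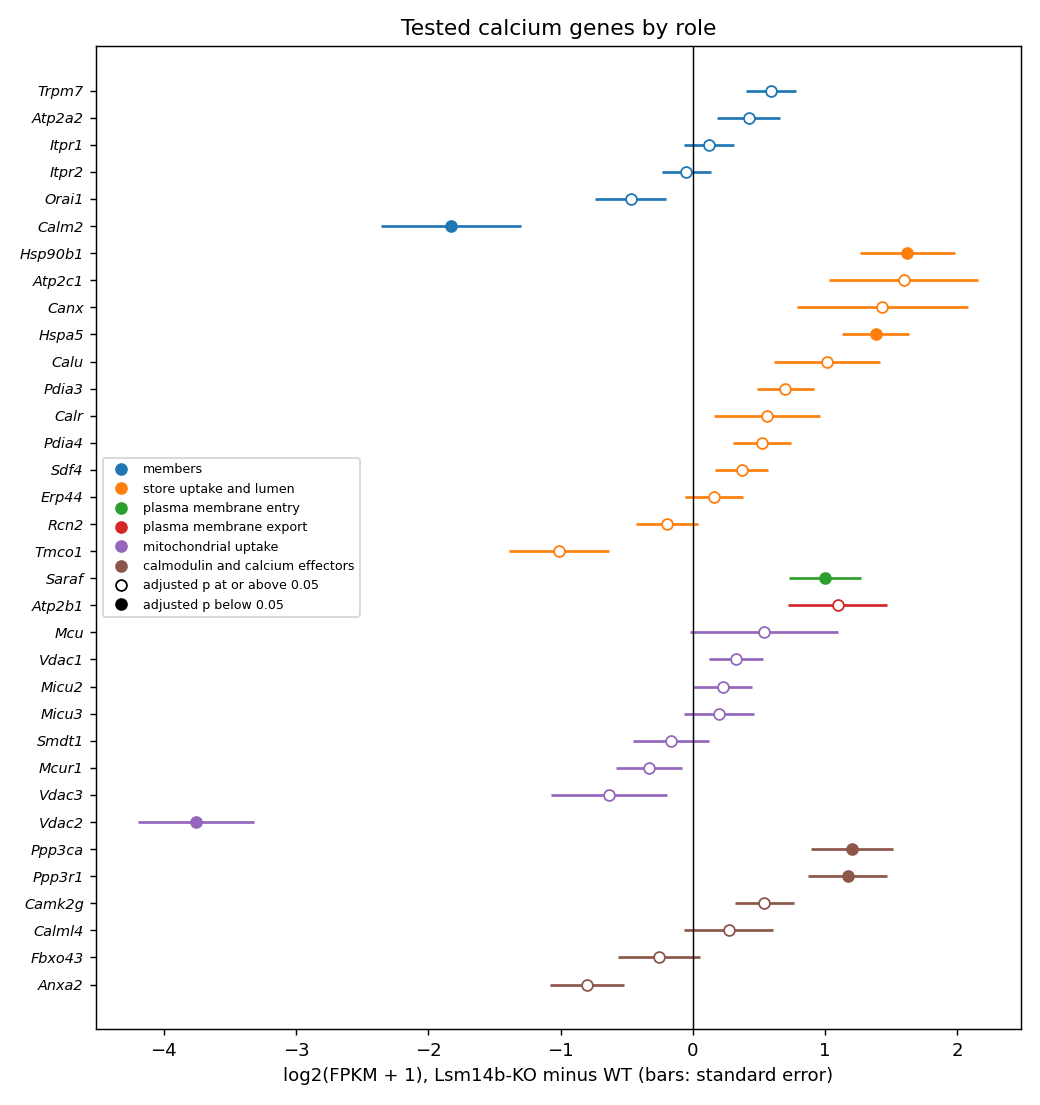
Log2 fold changes between Lsm14b-KO and WT, with standard errors, for the 6 tested calcium genes and 28 of the 30 tested genes of the wider list, coloured by role and filled where the adjusted p was under 0.05. Calm2 and Vdac2 are the filled points below 0 and Hspa5, Hsp90b1, Saraf, Ppp3ca and Ppp3r1 those above it.

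The scaling of the libraries moved these values. Under equal FPKM sums the median log2 fold change of all tested genes was higher by 0.47, at 0.40, and 63.2% of the called genes were higher in Lsm14b-KO, against 29.5% as deposited. Relative to the median of all genes, the log2 fold change of Calm2 was -1.75 as deposited and -1.53 under equal sums. The same relative value was 0.67 and 0.58 for Trpm7, 0.50 and 0.66 for Atp2a2, -0.39 and -0.39 for Orai1, 0.20 and 0.06 for Itpr1 and 0.03 and 0.10 for Itpr2. Itpr2 turned to -0.042 relative to the median with quantile normalization, and after the length and GC correction Itpr2 and Itpr1 were at -0.26 and -0.15. The other 4 genes kept their side of the median in these settings and with median-ratio scaling.

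**Figure D5:**
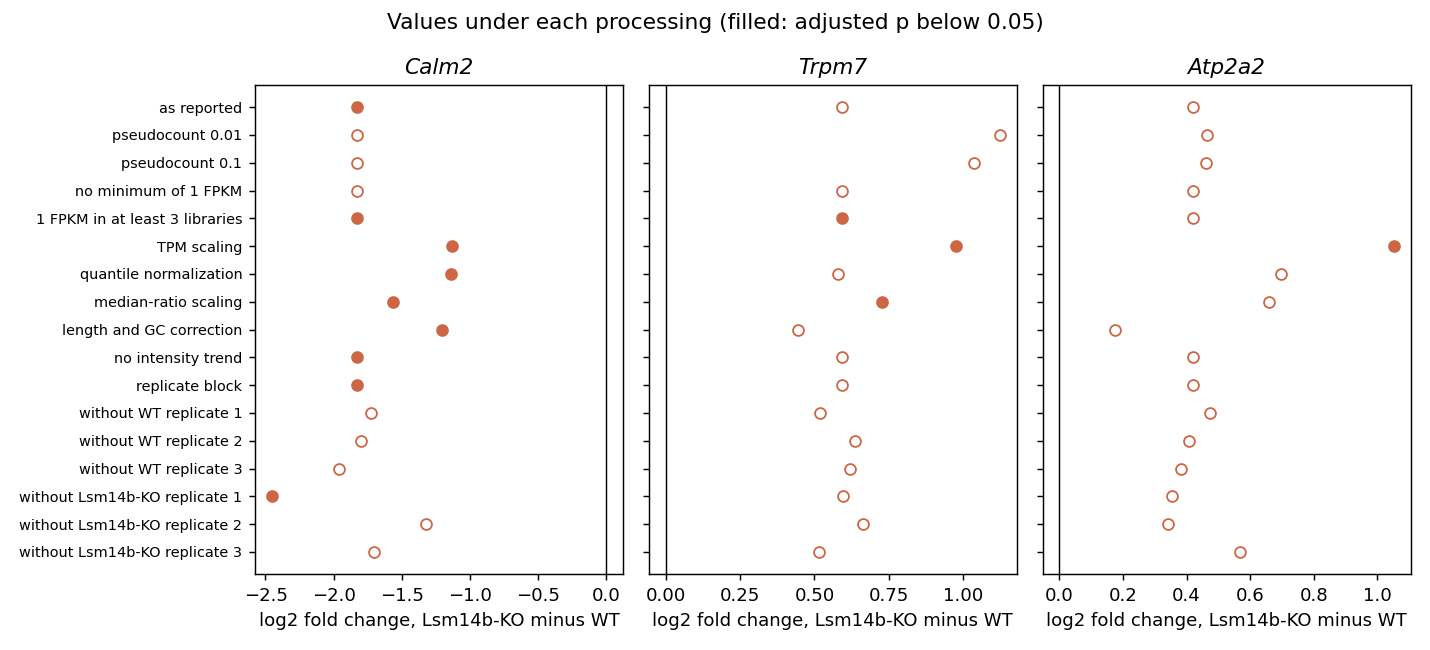
Log2 fold changes of Calm2, Trpm7 and Atp2a2 between Lsm14b-KO and WT under each way of processing the values, filled where the adjusted p was under 0.05. Calm2 stays between -2.45 and -1.13, Trpm7 between 0.44 and 1.12 and Atp2a2 between 0.18 and 1.05, all on the same side of 0 throughout.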

How the data were processed

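RNA-Seq of 3 WT and 3 Lsm14b-KO libraries was analysed from 1 deposited table. The authors aligned 150-base read pairs to mm10 with TopHat2 (version 2.0.13) and computed FPKM with Cufflinks (version 2.2.1). Cuffnorm and Cuffdiff are named as well, and which program scaled the deposited FPKM was not tested. The labels name different library kits in different places, and neither strandedness nor the annotation is given in the sources used here. Of the 10 genes, 9 overlap another annotated gene on the other strand, and without strand the fragments of the overlap cannot be told apart. Itpr1, Itpr2, Itpr3 and Atp2a2 also overlap genes on their own strand, which strand would not separate. The 3 deposited columns of the authors' own comparison (log2 fold change, p and q) were not used.

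Genes that reached 1 FPKM in any library were tested on log2(FPKM + 1) with limma 3.58.1 in R 4.3.3 (lmFit, eBayes with an intensity trend), two-sided, with Benjamini-Hochberg adjustment over all 6398 genes and a threshold of 0.05. Family shares and single genes were tested with exact permutation tests (scipy 1.17.1). The code was tested on simulated data. The 10 genes and the gene lists were chosen with earlier results of these data known. The named genes were these 10, Lsm14b, the paralogs used in shares, and list genes with an adjusted p under 0.05 and groups that did not overlap, up to 3 rises and 3 falls per role. Others are named as examples and were chosen after their values were seen. The list symbols Irag2, Stimate and Mcub had no match, and some genes of the lists are not reported here.

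Coordinates, lengths and GC content came from GENCODE vM21, for 6318 (98.7%) of the tested genes. Copies were searched for with blastn 2.17.0 at 95% identity or more over at least 200 bases. Since no counts were used, fragment numbers were estimated from the spacing of low values of genes with transcripts over 2500 bases. Of these low values, 70.6% to 73.9% lay within 0.15 of a whole number of fragments, so the numbers are approximate, and limits drawn from 3 fragments cover counting error only. Same-numbered libraries did not deviate together (r = 0.19, -0.13 and 0.02 across genes), so they were not paired. The alternatives were pseudocounts of 0.01 and 0.1, other filters, other scalings, a length and GC correction, no intensity trend, a replicate block, and leaving out each library.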

Additional observations from a re-analysis of the deposited data

How the results depend on the processing

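Of all genes, 1383 were called as reported, and 321 to 2952 when single libraries were left out, the extremes being without Lsm14b-KO replicates 3 and 1. Without the minimum of 1 FPKM, 720 of 14325 genes were called. Of the 6 calcium genes, the count of 1 became 0 with pseudocounts of 0.01 and 0.1 and without the minimum. With 1 FPKM required in 3 libraries it was 2 of 5, beside 1440 of 5073 genes overall. It was 2 of 6 with median-ratio scaling (1417 of 6398 overall) and 3 of 6 under equal FPKM sums (1319 of 6398 overall). Each of these higher counts included Trpm7, which passed the filters only through Lsm14b-KO libraries. With single libraries left out the count was 0 to 1, with 0 in each case other than without Lsm14b-KO replicate 1. For Calm2 the adjusted p was 0.065 and 0.050 (just above the threshold) with the lower pseudocounts and 0.12 without the minimum. Of the wider list, the count of 6 of 30 became 2 of 69 without the minimum (720 of 14325 overall). With single libraries left out it was 1 to 16. It was 1 of 30 without WT replicate 1 (408 of 6280 overall) or WT replicate 2 (426 of 6282 overall). Without WT replicate 3 it was 2 of 30 (537 of 6284 overall). Without Lsm14b-KO replicate 1 it was 16 of 30, beside 2952 of 6280 overall. Without Lsm14b-KO replicate 2 it was 5 of 27 (915 of 6182 overall), and without replicate 3 it was 1 of 29 (321 of 6338 overall). Without the minimum, Hsp90b1, Saraf, Ppp3ca and Ppp3r1 also lost their calls, as Ppp3ca did with the length and GC correction (adjusted p = 0.081 by limma).

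The signs of some small differences turned. The log2 fold change of Itpr1 was -0.068 with the length and GC correction. That of Itpr2 was 0.49 under equal FPKM sums, 0.026 with quantile normalization and 0.16 with median-ratio scaling, and it ran from -0.11 to 0.0027 with single libraries left out (the latter without WT replicate 2). That of Orai1 was 0.0083 under equal sums. The causes were not tested. The share of Itpr1 kept its direction, from 1.46 to 5.35 percentage points with single libraries left out and at 0.32 after the length and GC correction.

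With the replicate number as a block, 1244 of 6398 genes, 1 of the 6 calcium genes and 6 of 30 in the wider list were called. Saraf lost its call (adjusted p = 0.059 by limma), so the 6 list genes were not the same as those reported. With the Itpr1 shares paired by replicate number, the difference was 3.69 percentage points (exact sign-flip test, p = 0.25, the smallest possible). Depth limits Stim1, Stim2, Cacna1h and Itpr3, which rest on 11 fragments or fewer per library.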
